A study of Helianthus annuus with 12 samples.

Results

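Oleate desaturase genes were followed in developing seeds of sunflower (Helianthus annuus). They were the 5 genes, of 48882 with expression values, whose deposited protein description names a delta-12 or omega-6 desaturase of this kind: gene64287, gene18808, gene55389, gene1458 and gene44739. All 5 reached 1 FPKM in 3 or more of the 12 libraries and so entered the tests (FPKM are sequenced fragments scaled by gene length and by library size, so levels can be compared between genes). The seeds came from the cultivars 86-1 and L-1-OL-1, in a series that sets sunflowers of high and low oleic acid content side by side. The 4 groups, of 3 libraries each, were 86-1 at 27 days after flowering (DAF), 86-1 at 17 DAF, L-1-OL-1 at 27 DAF and L-1-OL-1 at 17 DAF. The labels place the fast build-up of oleic acid at 17 DAF and its near-constant level at 27 DAF, and give no treatment. Which of the cultivars is the one rich in oleic acid is not stated in them, so both are called by name. Nothing in the labels ties the libraries of a group to separate plants, so p-values measure the spread between libraries, which may be technical.

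Oleic acid has 1 double bond, and an oleate desaturase adds a further one at the delta-12 position, which makes linoleic acid. The microsomal enzymes of this family work on oleic acid bound to phosphatidylcholine in the endoplasmic reticulum and draw their electrons from cytochrome b5 and its NADH-dependent reductase, whereas a plastid enzyme does the same on plastid lipids with ferredoxin. In seeds that store linoleic acid the microsomal step stands between oleic and linoleic acid in the oil, and in sunflower a seed-expressed gene of this type is known as the one altered in lines selected for high oleic acid. Near relatives of these enzymes carry out other reactions at the same position, among them acetylenases, which turn the double bond of linoleic acid into a triple bond, and conjugases, which shift it.

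The deposited descriptions differed in how close they come to the label. The same wording, delta-12 oleate desaturase, described gene64287, gene55389 and gene1458, which matched their database entries over 378 of 378, 382 of 382 and 379 of 383 aligned residues. The other two are less certain members: gene18808 was described as a putative delta(12) fatty acid dehydrogenase, a name that protein databases also use for acetylenases, and matched over 377 of 377 residues. The fifth, gene44739, was described as a putative omega-6 fatty acid desaturase protein and matched over 443 of 443 residues, the longest aligned stretch of the 5. The files do not state where in the cell any of the 5 products sits, and the activity of none was measured. These genes are close relatives and can share reads, and since the sources used here do not say how such reads were split, the level of each is uncertain to that extent.

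Libraries of one group correlated at 0.931 to 0.974 (Pearson r over tested genes), except replicate 1 of L-1-OL-1 at 17 DAF, which stood at 0.784 to 0.861 with its own group and at 0.833 to 0.860 with 86-1 at 17 DAF. Its own label was kept, and several differences that rest on it are given with and without it. The labelled tissue was checked by the summed FPKM of 36 genes whose descriptions name 11S globulin, 2S albumin or oleosin. They took 9.59 to 13.5% of all FPKM in 86-1 at 27 DAF, 3.29 to 9.36% in 86-1 at 17 DAF, 2.52 to 2.88% in 27 DAF seeds of L-1-OL-1 and 2.96 to 7.96% in its 17 DAF seeds. Many of the 36 carry the 2S albumin name only within a superfamily name shared with lipid-transfer proteins and inhibitors, so not all need be storage proteins. Late maturation genes (88 late embryogenesis abundant proteins and dehydrins) took 2.02 to 3.73% in 27 DAF and 0.339 to 0.526% in 17 DAF seeds of 86-1, and 4.70 to 6.79% in 27 DAF seeds of L-1-OL-1 and 0.482 to 3.76% in its 17 DAF seeds. Between 19 and 28 of those 36 genes and between 47 and 65 of the late maturation genes reached 1 FPKM in a library. Markers of hull or seed coat wall (67 genes) lay between 0.0241 and 0.127% in every library, with 8 to 35 of them at 0, and those of green tissue (51 genes) between 0.0126 and 0.0815%, with 2 to 18 at 0. FPKM totals were 605655 to 683903, and the steps between low values put depth at 0.796 to 1.22 of that of replicate 1 of 86-1 at 17 DAF. Read numbers are unknown, so no counting interval is given.

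Of the 5 genes gene64287 set the cultivars apart most, and at both stages. Replicates 1, 2 and 3 had 568, 554 and 176 FPKM in 86-1 at 27 DAF, against 0.0902, 0.0735 and 0 FPKM in 27 DAF seeds of L-1-OL-1. The 17 DAF libraries had 905, 698 and 481 FPKM in 86-1, against 49.3, 18.0 and 2.55 FPKM in L-1-OL-1. Every 86-1 library was above every L-1-OL-1 library at both stages, as in 29.5% of all tested genes at 27 DAF and 17.7% at 17 DAF. The gap was about an order of magnitude or more at 17 DAF, and L-1-OL-1 was close to or at 0 at 27 DAF. Only 46 to 114 genes had a higher FPKM in the 86-1 libraries at 17 DAF and 80 to 375 at 27 DAF, while in the L-1-OL-1 libraries at 17 DAF, in the order of their numbers, 1499, 5480 and 20808 genes did. In bulk RNA of seeds, fewer cells that express a gene and less of its RNA in each cell cannot be told apart.

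The difference in gene64287 was called by limma, with p-values adjusted over all 30020 tested genes and a threshold of 0.05. On the log2(FPKM + 1) scale, which understates differences of low values, 86-1 was higher than L-1-OL-1 by 8.50 ± 0.76 (SE) at 27 DAF (adjusted p = 2.68e-06) and by 5.49 ± 0.76 at 17 DAF (adjusted p = 0.000169). It held in all 22 alternative fits at each stage, with a range of 3.20 to 6.36 at 17 DAF. The highest was without replicate 1 of L-1-OL-1, and the lowest was with the late maturation level as a covariate (adjusted p = 0.00194), a fit added after seeing the data. As a covariate this level was the mean log2(FPKM + 1) of the 63 late maturation genes that were tested, not their share of all FPKM. With a pseudocount of 0.1 the difference at 27 DAF was 11.32.

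**Figure D1:**
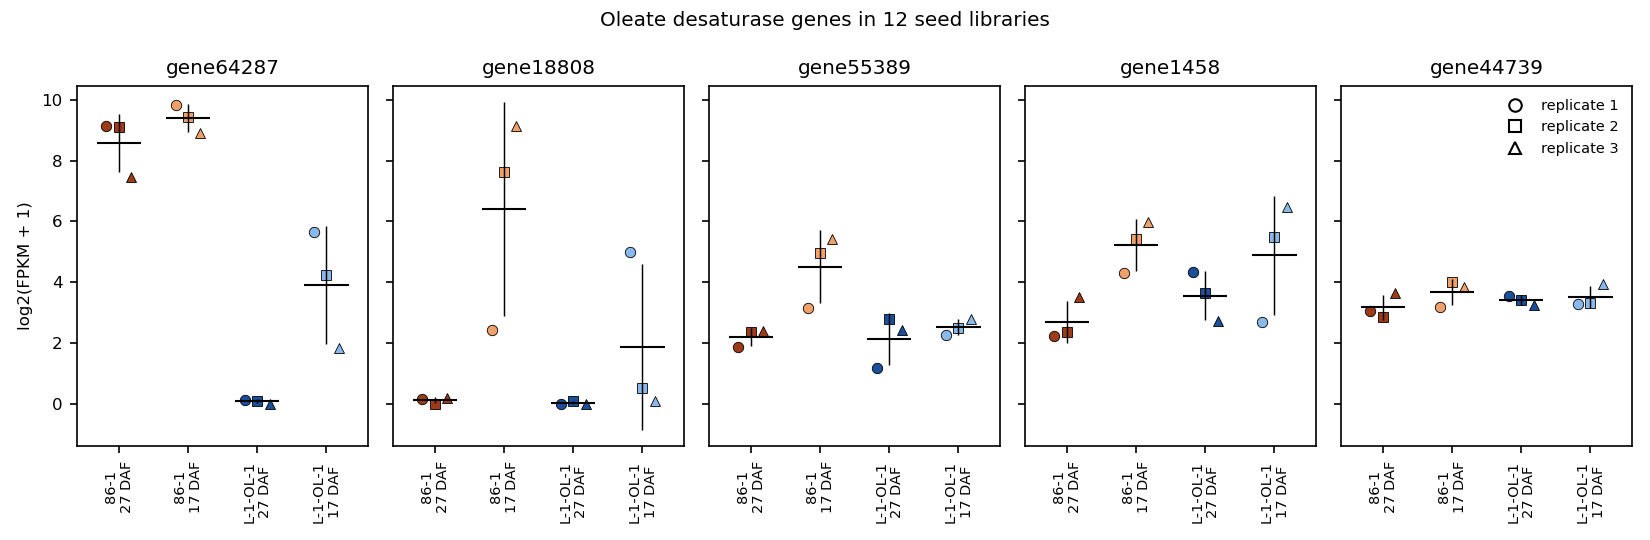
Level of each of the 5 genes in every library, as log2(FPKM + 1) on the vertical axis, with the 4 groups along the horizontal axis; marker shape gives the replicate, horizontal lines the mean and vertical bars the SD on this scale (n = 3). For gene64287 the 6 libraries of 86-1 lie above the 6 of L-1-OL-1, whereas those of gene44739 lie at about the same height in every group.

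The other 4 genes did not share this pattern. At 17 DAF gene18808 had 4.35, 198 and 559 FPKM in replicates 1, 2 and 3 of 86-1, against 31.0, 0.413 and 0.0736 FPKM in L-1-OL-1. The groups overlapped: 1 library of L-1-OL-1 was above 1 library of 86-1, and each group spanned 2 or more orders of magnitude. At 27 DAF gene18808 had 0.103, 0 and 0.140 FPKM in 86-1 and 0, 0.0744 and 0 FPKM in L-1-OL-1, which is too low in both for a fold to be given. It reached 1 FPKM in 4 of the 12 libraries, all at 17 DAF, so it entered the test through that stage alone, and without the libraries of 86-1 at 17 DAF it would not have passed the filter of 1 FPKM in at least 3 libraries.

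gene55389 was the third gene that was higher in 86-1 at 17 DAF. It had 7.90, 30.5 and 41.7 FPKM in 86-1, against 3.80, 4.64 and 5.88 FPKM in L-1-OL-1. Every 86-1 library was above every L-1-OL-1 library, as in 17.7% of all tested genes. At 27 DAF it had 2.63, 4.10 and 4.28 FPKM in 86-1 and 1.25, 5.90 and 4.43 FPKM in L-1-OL-1, with the libraries of both interleaved. The high values were thus those of 86-1 at 17 DAF, and of those replicate 1 was the lowest.

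gene1458 was not called between the cultivars at either stage. At 17 DAF it had 18.8, 41.5 and 61.9 FPKM in 86-1 and 5.50, 43.5 and 87.0 FPKM in L-1-OL-1, and at 27 DAF 3.72, 4.11 and 10.3 FPKM in 86-1 and 19.1, 11.5 and 5.53 FPKM in L-1-OL-1. The cultivars overlapped at both stages, and replicate 1 was the lowest of its group at 17 DAF in each cultivar. gene44739, the gene with the longest match, varied least, with 7.27, 6.20 and 11.4 FPKM in 86-1 at 27 DAF, 8.09, 15.1 and 13.2 FPKM in 86-1 at 17 DAF, 10.8, 9.72 and 8.43 FPKM in 27 DAF seeds of L-1-OL-1 and 8.81, 8.86 and 14.4 FPKM in its 17 DAF seeds. All 4 groups of gene44739 overlapped.

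Of the 4 genes that passed the filter without the libraries of 86-1 at 17 DAF, 2 were called higher in 86-1 than in L-1-OL-1 at 17 DAF and 0 lower. Over all tested genes 15.6% were called higher and 11.4% lower. The 2 were gene64287 and gene55389, the latter higher by 2.0005 ± 0.54 (adjusted p = 0.0155). With gene18808 the count was 3 of the 5 genes, but gene18808 passed the filter through those libraries, so its difference is given as a description. It was higher by 4.53 ± 1.49 (adjusted p = 0.0406). Leaving out replicate 2 or 3 of either cultivar at 17 DAF ended the call of gene18808 (adjusted p = 0.147 to 0.172), as did leaving out any 1 of the 6 libraries at 27 DAF (adjusted p = 0.0524 to 0.0608), so it held in 2 of 12 fits without 1 library, those without replicate 1 of 86-1 or of L-1-OL-1 at 17 DAF. It was also lost in 7 of 10 other alternative fits (adjusted p = 0.0543 to 0.579), and so in 17 of 22 in all. The call of gene55389 ended when replicate 2 or 3 of 86-1 at 17 DAF was left out (adjusted p = 0.0714 and 0.0746). It was lost in 4 of 22 alternative fits in all, among them that of the 2 groups compared alone. For the remaining genes the difference at 17 DAF was 0.35 ± 0.81 for gene1458 (adjusted p = 0.802) and 0.16 ± 0.30 for gene44739 (adjusted p = 0.753). The 95% confidence interval of the difference in gene44739, -0.50 to 0.82, leaves room for less than 1 unit on the log2 scale either way.

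At 27 DAF 1 of the 5 genes, gene64287, was called higher in 86-1 and 0 were called lower, where 21.2% of all tested genes were called higher and 27.1% lower. The differences of the others on the log2 scale were 0.08 ± 1.49 for gene18808 (adjusted p = 0.973), 0.07 ± 0.54 for gene55389 (adjusted p = 0.926), -0.86 ± 0.81 for gene1458 (adjusted p = 0.407) and -0.23 ± 0.30 for gene44739 (adjusted p = 0.556). The median difference over all tested genes was -0.12 at 27 DAF and 0.00466 at 17 DAF.

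**Figure D2:**
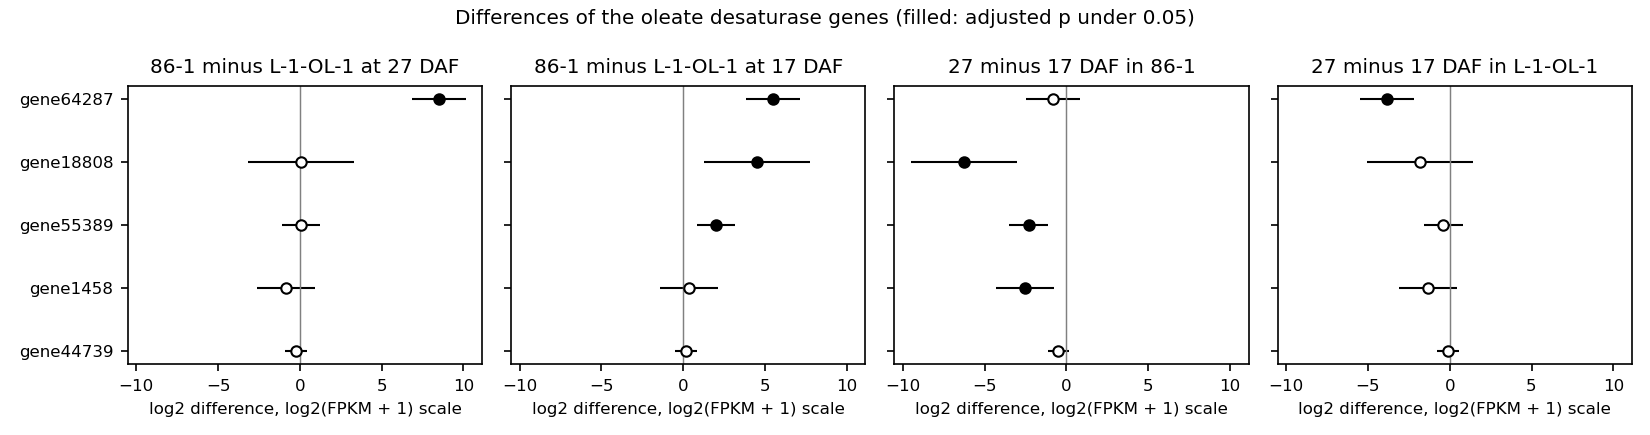
Difference of each gene between cultivars and between stages on the log2(FPKM + 1) scale (horizontal axis), with 95% confidence intervals from the limma fit to 12 libraries; filled points have an adjusted p under 0.05. gene64287 is the one gene with a filled point in both cultivar panels, and gene44739 has none in any panel.

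Between the stages gene64287 was called in L-1-OL-1 and not in 86-1, while the difference of these differences missed the threshold. In L-1-OL-1 it fell to a mean of 0.0546 ± 0.048 FPKM at 27 DAF, against 23.3 ± 23.8 FPKM at 17 DAF (SD, n = 3 each), with no overlap (as in 27.6% of all tested genes) and a log2 difference of -3.83 ± 0.76 (adjusted p = 0.002) that held in all 22 alternative fits and was -2.96 without replicate 1 at 17 DAF. In 86-1 it averaged 433 ± 223 FPKM at 27 DAF and 695 ± 212 FPKM at 17 DAF, with overlapping libraries and a log2 difference of -0.82 ± 0.76 (adjusted p = 0.534, 95% confidence interval -2.47 to 0.84), and with the late maturation level as a covariate its sign turned (1.82, adjusted p = 0.0596). The stage difference in 86-1 minus that in L-1-OL-1 was 3.02 ± 1.07 (adjusted p = 0.0635), so the cultivars were not shown to differ in it. That value was called without replicate 3 of 86-1 at 27 DAF (3.57, adjusted p = 0.0401), without replicate 3 of L-1-OL-1 at 17 DAF (4.06, adjusted p = 0.00301) and with a pseudocount of 0.1 (5.67, adjusted p = 0.0072).

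In 86-1 2 of the 4 genes that passed the filter without the 17 DAF libraries, gene55389 and gene1458, fell to lower levels at 27 DAF than at 17 DAF and 0 rose, where 14.1% of all tested genes were called lower and 4.62% higher. The third gene called lower, gene18808, passed the filter through those 17 DAF libraries, so its difference is given as a description. It averaged 0.0811 ± 0.0727 FPKM at 27 DAF and 254 ± 282 FPKM at 17 DAF, a log2 difference of -6.29 ± 1.49 (adjusted p = 0.0122). For gene55389 the means were 3.67 ± 0.903 FPKM at 27 DAF and 26.7 ± 17.2 FPKM at 17 DAF, with a log2 difference of -2.31 ± 0.54 (adjusted p = 0.0111). gene1458 averaged 6.04 ± 3.70 FPKM at 27 DAF and 40.7 ± 21.6 FPKM at 17 DAF, with a log2 difference of -2.53 ± 0.81 (adjusted p = 0.0479). In gene55389 and gene1458 every 17 DAF library was above every 27 DAF library of 86-1, as in 22.9% of all tested genes.

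These calls depended on few libraries. Those of gene18808 (adjusted p = 0.0624 and 0.0615) and gene55389 (adjusted p = 0.0592 and 0.0581) were lost without replicate 2 or 3 of 86-1 at 17 DAF, and that of gene55389 also without replicate 1 of 86-1 at 27 DAF (adjusted p = 0.0527). The call of gene1458 was lost in 9 of the 12 fits without 1 library (adjusted p = 0.0534 to 0.18) and held without replicate 1 of 86-1 at 17 DAF and without replicate 1 or 3 of L-1-OL-1 at 17 DAF. Late maturation genes moved the other way over the same libraries, at 2.02 to 3.73% of all FPKM in 86-1 at 27 DAF and 0.339 to 0.526% at 17 DAF, and the part of this in the stage differences was not tested.

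In L-1-OL-1 1 of the 5 genes, gene64287, fell and 0 rose, where 22.3% of all tested genes were called lower and 20.4% higher. gene1458 averaged 12.03 ± 6.78 FPKM at 27 DAF and 45.3 ± 40.8 FPKM at 17 DAF, with a log2 difference of -1.32 ± 0.81 (adjusted p = 0.208) in which replicate 1 at 17 DAF, at 5.50 FPKM, lay within the range of the 27 DAF libraries. Without that library the difference was -2.41 (adjusted p = 0.0058). gene18808 averaged 0.0248 ± 0.0429 FPKM at 27 DAF and 10.5 ± 17.7 FPKM at 17 DAF, with replicate 1 carrying the 17 DAF mean (log2 difference -1.83 ± 1.49, adjusted p = 0.343). Without that replicate the log2 difference of gene18808 was -0.27. gene55389 (-0.38 ± 0.54, adjusted p = 0.601) and gene44739 (-0.11 ± 0.30, adjusted p = 0.813) had small differences with overlapping libraries. gene44739 was not called between the stages of 86-1 either (-0.50 ± 0.30, adjusted p = 0.301).

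For none of the 5 genes was the stage difference called to differ between the cultivars, where 8.50% of all tested genes were called for a higher and 13.6% for a lower value in 86-1. By limma the value was 3.02 ± 1.07 for gene64287 (adjusted p = 0.0635) and -1.93 ± 0.76 for gene55389 (adjusted p = 0.089). For gene18808 it was -4.45 ± 2.11 (adjusted p = 0.149), and 18 of 21 alternative fits did not call it either. This gene passed the filter through the libraries of 86-1 at 17 DAF, so its values are a description. gene18808 was called without replicate 1 of 86-1 at 17 DAF (-6.44, adjusted p = 0.0136) or of L-1-OL-1 at 17 DAF (-6.02, adjusted p = 0.0236). gene55389 was called without replicate 1 of 86-1 at 17 DAF (-2.61, adjusted p = 0.00977) or of L-1-OL-1 at 27 DAF (-2.41, adjusted p = 0.0404). The comparisons of cultivars at 17 DAF and of stages in 86-1 share the libraries of 86-1 at 17 DAF, so their values in gene18808 and gene55389 are not independent of each other.

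In order of mean FPKM, gene64287 ran from 86-1 at 17 DAF, 86-1 at 27 DAF and L-1-OL-1 at 17 DAF to L-1-OL-1 at 27 DAF. The first neighbours did not differ beyond their spread, the next did (86-1 at 27 DAF was higher than L-1-OL-1 at 17 DAF by 4.67 ± 0.76, adjusted p = 0.000626, where 7.65% of all tested genes were called higher), and so did the last. gene18808 and gene55389 were both highest in 86-1 at 17 DAF and next in L-1-OL-1 at 17 DAF, and that first step was the one called for each. For gene1458 and gene44739 0 of the 3 steps were called, with adjusted p of 0.0927 to 0.813; the smallest was that between 86-1 at 17 DAF and L-1-OL-1 at 27 DAF in gene1458, where 33.1% of all tested genes were called higher. Over the 5 genes 4 of 15 steps were called, and without replicate 2 or 3 of 86-1 at 17 DAF 2 were. Neighbours were picked by sorting the same means, so the count of called steps only describes the order. No share over all tested genes was computed for that count. Of the 4 steps 1 was in gene18808, which passed the filter through the libraries of 86-1 at 17 DAF, so that step is a description. No gene was highest at 27 DAF in either cultivar.

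The make-up of the 5 genes together followed from these patterns. Their summed FPKM was 582, 568 and 202 in 86-1 at 27 DAF, 944, 983 and 1157 in 86-1 at 17 DAF, 31.2, 27.2 and 18.4 for the 27 DAF seeds of L-1-OL-1 and 98.3, 75.4 and 110 for its 17 DAF seeds. In each cultivar every 17 DAF library had a higher sum than every 27 DAF library, and every 86-1 library a higher one than every L-1-OL-1 library. The share of gene64287 in this sum was 97.6, 97.5 and 87.1% in 86-1 at 27 DAF and 95.9, 71.0 and 41.6% in 86-1 at 17 DAF. In L-1-OL-1 it was 0.289, 0.270 and 0% at 27 DAF and 50.1, 23.8 and 2.32% at 17 DAF. In 86-1 at 17 DAF gene18808 made up 0.461, 20.2 and 48.3% of it in replicates 1, 2 and 3.

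With gene64287 close to or at 0 in L-1-OL-1 at 27 DAF, its sum consisted of gene1458 (61.1, 42.1 and 30.1%), gene44739 (34.6, 35.7 and 45.8%) and gene55389 (4.003, 21.6 and 24.1%). At 17 DAF in the same cultivar gene1458 held 5.59, 57.7 and 79.1%. Replicate 1 of that group stood apart here too, with gene64287 at 50.1% and gene18808 at 31.5% of the sum.

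Stearoyl-ACP desaturases make oleic acid in the plastid and so stand one step before the oleate desaturases. The descriptions named 2 such genes, gene3372 and gene48724, whose summed FPKM was 400, 444 and 138 in 86-1 at 27 DAF, 1623, 1265 and 1047 in 86-1 at 17 DAF, 15.6, 19.3 and 13.6 for the 27 DAF seeds of L-1-OL-1 and 1113, 245 and 78.1 for its 17 DAF seeds. FPKM of gene64287 divided by that sum was 1.42, 1.25 and 1.27 in 86-1 at 27 DAF and 0.558, 0.552 and 0.459 in 86-1 at 17 DAF. In L-1-OL-1 the ratio was 0.00579, 0.00381 and 0 at 27 DAF and 0.0443, 0.0733 and 0.0327 at 17 DAF. In 86-1 at 27 DAF the ratio stayed within 1.25 to 1.42 while gene64287 spanned 176 to 568 FPKM, and the cultivars did not overlap at either stage. The difference in the ratio between 86-1 and L-1-OL-1 had p = 0.1 at each stage in a two-sided exact permutation test, which is the smallest that 3 against 3 libraries allow.

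**Figure D3:**
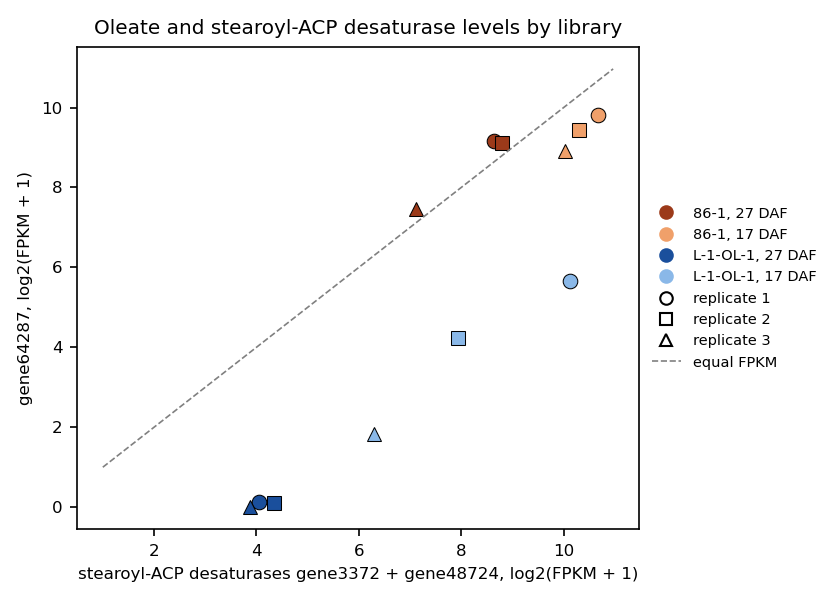
gene64287 (vertical axis) against the summed stearoyl-ACP desaturases gene3372 and gene48724 (horizontal axis) in each library, both as log2(FPKM + 1); colour gives the group, marker shape the replicate, and the dashed line marks equal FPKM. Replicate 1 of L-1-OL-1 at 17 DAF lies within the range of 86-1 at 17 DAF on the horizontal axis, at a summed 1113 FPKM, but has 49.3 FPKM of gene64287 where those libraries have 481 to 905.

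Replicate 1 of L-1-OL-1 at 17 DAF was the library of that cultivar nearest to 86-1 at 17 DAF in several of these measures. Its summed stearoyl-ACP desaturases of 1113 FPKM were inside the 1047 to 1623 FPKM of 86-1 at 17 DAF, and its late maturation genes, at 0.482% of all FPKM, inside the 0.339 to 0.526% there. Its gene64287, at 49.3 FPKM, was below the lowest of those libraries, and its ratio to the stearoyl-ACP desaturases, 0.0443, lay between those of the other two libraries of its own group. Within L-1-OL-1 at 17 DAF late maturation genes took 0.482, 1.33 and 3.76% in replicates 1, 2 and 3, where gene64287 had 49.3, 18.0 and 2.55 FPKM and gene1458 5.50, 43.5 and 87.0 FPKM. With 3 libraries this order is a description, and its part in the cultivar and stage differences was not tested.

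**Figure D4:**
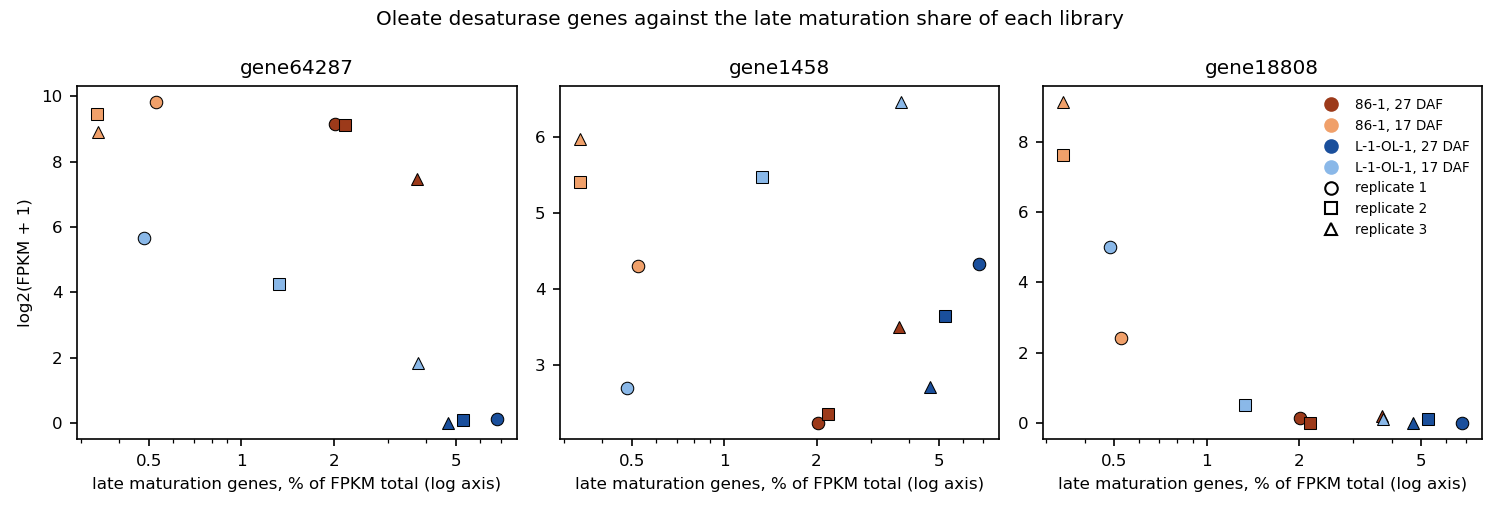
gene64287, gene1458 and gene18808 as log2(FPKM + 1) (vertical axes) against the share of all FPKM in 88 late maturation genes, in percent on a log axis; colour gives the group and marker shape the replicate. In L-1-OL-1 at 17 DAF gene64287 goes down and gene1458 up from 0.482 to 3.76%, and gene64287 is higher in the 86-1 libraries at 2.02 to 3.73% than in any L-1-OL-1 library.

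gene18808 had close company in its pattern. On log2(FPKM + 1) over the 12 libraries, the genes most like it among 11143 candidates with a naming description were gene25088, gene25083 and gene52062, with Pearson r of 0.995, 0.994 and 0.994. All 3 are described as fatty acid desaturases of no stated type. In replicates 1, 2 and 3 of 86-1 at 17 DAF gene25083 had 6.48, 226 and 600 FPKM, and in replicate 1 of L-1-OL-1 at 17 DAF 22.3 FPKM, so it was high and low in the same libraries as gene18808. The 12 libraries fall into groups, and the r describes this pattern with no test.

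Near relatives followed this pattern in part. Of 5 genes described as acetylenases or conjugases 0 passed the filter, so none was tested. The acetylenases gene18133, gene18134 and gene18135 had 0.992, 7.50 and 17.8 FPKM, 0.569, 10.1 and 26.8 FPKM, and 0.192, 11.7 and 27.3 FPKM in replicates 1, 2 and 3 of 86-1 at 17 DAF. In L-1-OL-1 all 3 were listed at 0 at 27 DAF and reached at most 0.354 FPKM at 17 DAF, and in 86-1 at 27 DAF they reached at most 0.412 FPKM. Within 86-1 at 17 DAF the 3 acetylenases were thus lowest in replicate 1 and highest in replicate 3, as gene18808 was, but in replicate 1 of L-1-OL-1 at 17 DAF they were not high. The bifunctional desaturase/conjugase gene18807 and the conjugase gene18946 stayed at or below 1.12 and 3.59 FPKM, and gene18807 was lowest in replicate 3 of 86-1 at 17 DAF (0.813 FPKM, against 0.856 and 1.12 FPKM in replicates 1 and 2).

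**Figure D5:**
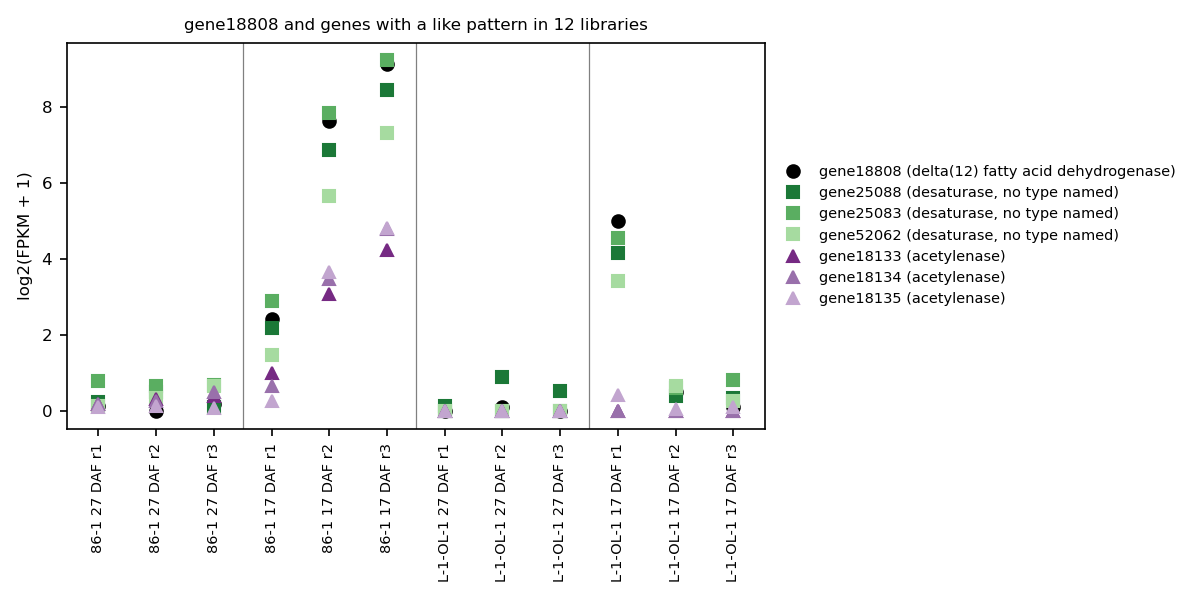
log2(FPKM + 1) (vertical axis) of gene18808, of the 3 desaturases of no stated type most like it and of 3 acetylenases, in each of the 12 libraries along the horizontal axis (r is the replicate). All 7 are high in replicates 2 and 3 of 86-1 at 17 DAF; in replicate 1 of L-1-OL-1 at 17 DAF gene18808 and the unspecified desaturases are high and the acetylenases are not, and in replicate 1 of 86-1 at 17 DAF the acetylenases are under 1 FPKM.

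Such unspecified desaturases were abundant in the same libraries. There were 16 of them with matches of 360 to 390 residues, the length range of most of the 5 genes, and their summed FPKM was 3.72, 11.8 and 10.2 in 86-1 at 27 DAF and 92.5, 2506 and 7760 in 86-1 at 17 DAF. In L-1-OL-1 the sum was 0.225, 1.17 and 0.891 at 27 DAF and 360, 26.7 and 15.7 at 17 DAF. Any of them that is in truth an oleate desaturase is missing from the 5 genes. Of the summed FPKM of all 48 described desaturases the 5 genes took 53.6, 48.4 and 42.1% in 86-1 at 27 DAF, 34.8, 20.2 and 11.3% in 86-1 at 17 DAF, 29.6, 28.0 and 29.9% in 27 DAF seeds of L-1-OL-1, then 6.04, 13.7 and 27.8% in its 17 DAF seeds.

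The genes most like gene64287 were of other kinds. They were gene32816, a 2-oxoisovalerate dehydrogenase subunit (r = 0.987), gene22948, a microtubule-associated protein 65-1 (r = 0.981), gene20907, a TRAF-like protein (r = 0.979), gene35328, a GDSL-like lipase (r = 0.977), and gene64797, a RING finger protein (r = 0.974). Their levels were far lower, gene32816 for example at a mean of 9.96 FPKM in 86-1 at 27 DAF and 13.5 FPKM at 17 DAF, against 0.0136 FPKM in L-1-OL-1 at 27 DAF and 2.97 FPKM at 17 DAF. gene55389 was most like gene4440, a root hair defective 3 protein (r = 0.974), gene1458 most like gene3778, a syntaxin (r = 0.946), and gene25657, a FATB-type acyl-ACP thioesterase (r = 0.937), and gene44739 most like gene69981, an AT hook protein (r = 0.938). Among the 5 genes themselves r was highest between gene18808 and gene55389 (0.849) and between gene1458 and gene44739 (0.787). gene64287 had r of -0.05 with gene1458 and -0.12 with gene44739.

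Omega-3 desaturases act next, on linoleic acid, which they turn into linolenic acid. Of 5 described genes 4 were tested, and in the cultivar comparisons 1 was called higher and 1 lower in 86-1 at each stage. The 1 called higher at 17 DAF was gene30216, which reached 1 FPKM in libraries of 86-1 alone and so passed the filter through them. gene1691, an endoplasmic reticulum form, averaged 86.0 ± 19.3 FPKM in 86-1 at 27 DAF, 12.9 ± 7.06 FPKM in 86-1 at 17 DAF, 11.9 ± 13.1 FPKM in 27 DAF seeds of L-1-OL-1 and 91.6 ± 61.03 FPKM in its 17 DAF seeds (SD, n = 3 each). It was higher in 86-1 at 27 DAF (3.35 ± 0.77, adjusted p = 0.00343) and lower at 17 DAF (-2.55 ± 0.77, adjusted p = 0.0276), an order that gene64287 did not show. The 17 DAF call was lost without replicate 2 or 3 of either cultivar at that stage (adjusted p = 0.0846 to 0.12). gene30216, also an endoplasmic reticulum form, averaged 24.5 ± 16.8 FPKM in 86-1 at 17 DAF and 0.431 FPKM in L-1-OL-1 (3.87 ± 0.48, adjusted p = 7.92e-05), and at 27 DAF 1.63 FPKM in 86-1 and 0.152 FPKM in L-1-OL-1 (1.17, adjusted p = 0.0642). These differences are given as a description, since the gene passed the filter through the cultivar where it was high. gene30216 was highest where gene18808 and gene55389 were.

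Other steps around the oleate desaturases were counted by lists of described genes, to be read against all tested genes, of which 21.2% were called higher and 27.1% lower in 86-1 at 27 DAF, and 15.6% higher and 11.4% lower at 17 DAF. Both stearoyl-ACP desaturases were called higher in 86-1 at 27 DAF, by 5.15 (gene3372, adjusted p = 0.000677) and 2.64 (gene48724, adjusted p = 0.000158). At 17 DAF gene3372 was called (2.74, adjusted p = 0.0469), a call that held in 2 of 12 fits without 1 library and was lost, for example, without replicate 3 of L-1-OL-1 at 17 DAF (1.54, adjusted p = 0.172). Without replicate 1 of L-1-OL-1 at 17 DAF the difference was 3.96 and the call held. Of 9 tested cytochrome b5 and b5 reductase genes, the electron donors of microsomal desaturases, 4 were called higher and 2 lower in 86-1 at 27 DAF, and 3 higher and 0 lower at 17 DAF. Between stages 0 rose and 7 fell in 86-1, beside 4.62% higher and 14.1% lower over all tested genes, and 1 rose and 4 fell in L-1-OL-1, beside 20.4% and 22.3%. The cytochrome b5 gene15774 averaged 27.7 FPKM in 86-1 at 27 DAF, 84.3 FPKM in 86-1 at 17 DAF, 10.2 FPKM in 27 DAF seeds of L-1-OL-1 and 39.0 FPKM in its 17 DAF seeds, and was called in all 4 comparisons, with that between cultivars at 17 DAF (1.06, adjusted p = 0.0148) lost without replicate 2 or 3 of 86-1 or replicate 2 of L-1-OL-1 at 17 DAF.

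Enzymes around phosphatidylcholine, where the microsomal desaturases find their oleic acid, were tested as 9 genes. By their descriptions they were lysophosphatidylcholine or lysophosphatidyl acyltransferases, choline/ethanolamine or aminoalcohol phosphotransferases, and phospholipid:diacylglycerol acyltransferases. The list thus covers more than the exchange of acyl chains. Of the 9 genes 0 were called at 17 DAF in either direction, and at 27 DAF 4 were higher and 3 lower in 86-1. gene55427, described as lysophosphatidyl acyltransferase 2, averaged 29.3 FPKM in 86-1 and 3.42 FPKM in L-1-OL-1 at 27 DAF (2.94, adjusted p = 0.000308) and 84.8 FPKM in 86-1 and 55.1 FPKM in L-1-OL-1 at 17 DAF. Over all lists 34 of 82 tested genes were higher and 13 lower in 86-1 at 27 DAF, and 18 higher and 6 lower at 17 DAF. These totals include genes that reached 1 FPKM in libraries of a single cultivar, which could be called only as higher in it. Of 15 tested genes of triacylglycerol assembly 3 were higher and 3 lower in 86-1 at 27 DAF, and 2 higher and 2 lower at 17 DAF. Thioesterases of acyl-ACP release new fatty acids in the plastid, and synthetases of acyl-CoA activate fatty acids. Some of the synthetases listed are described as peroxisomal-like, so this list covers more than release from the plastid. Of their 16 tested genes 10 were higher and 0 lower in 86-1 at 27 DAF, where 21.2% of all tested genes were higher and 27.1% lower, and 6 higher and 0 lower at 17 DAF, where 15.6% were higher and 11.4% lower. Their median differences were 1.17 and 0.98, beside -0.12 and 0.00466 over all tested genes. Some of the 16 reached 1 FPKM in libraries of 86-1 alone and so passed the filter through the cultivar where they were high. For these a call could only be higher, and the counts and medians include them. Of 21 tested genes of plastid fatty acid synthesis 9 were higher and 2 lower at 27 DAF, and 4 higher and 3 lower at 17 DAF. Of 6 tested genes whose descriptions carry the names of seed oil regulators, 2 of them FUS3-complementing proteins and 1 a suppressor of abi3, 1 was higher and 2 lower at 27 DAF, and 1 higher and 0 lower at 17 DAF. The gene higher at both stages was gene73129, described as leafy cotyledon 1-like, a seed transcription factor. It averaged 18.2 ± 10.4 FPKM in 86-1 at 27 DAF and 165 ± 36.8 FPKM in 86-1 at 17 DAF (SD). In L-1-OL-1 it was listed at 0 at 27 DAF and averaged 31.8 ± 47.8 FPKM at 17 DAF. Its call at 17 DAF (3.85, adjusted p = 0.0133) was lost in 3 of 22 alternative fits. Those were the fit without replicate 2 of 86-1 at that stage, that of the 2 groups alone and that with the late maturation covariate.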

How the data were processed

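RNA of 12 seed samples was sequenced on an Illumina instrument, per the labels' protocols. The authors deposited FPKM per gene for all 12 libraries. The submitters' processing notes name RSEM 1.2.12, HISAT2 2.0.4, DESeq2 1.4.5 and Bowtie2 2.2.5 but not what each did; genome build and annotation: not given in the sources used here. A deposited table of best protein matches gives a match score, identity and description per gene; it has 65535 lines, was read as incomplete, and describes 45957 genes. 0 gene IDs matched the reference table, so no position or sequence is printed, and 0 value columns were left unmatched to a sample.

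FPKM are not counts, so limma 3.58.1 in R 4.3.3 was fitted on log2(FPKM + 1) to genes with at least 1 FPKM in at least 3 libraries, with a mean per group over all 12 libraries and a mean-variance trend. P-values are 2-sided and adjusted by Benjamini-Hochberg over all 30020 genes. The fit was tested on simulated data. The deposited match score served only to describe the genes. Pathway lists were matched by words in the descriptions; lists of 5 or fewer tested genes, and otherwise the 3 with the highest mean FPKM, could be named. Genes most like a member are the first by Pearson r among those with a group mean of at least 10 FPKM. Members and lists were chosen with earlier results of these data known.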

Additional observations from a re-analysis of the deposited data

Results flagged for a closer look

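Among the 24 genes of the pathways around the oleate desaturases that could be named, the stage difference (27 minus 17 DAF) itself was called by limma to differ between the cultivars in 5. Over all 82 tested pathway genes 17 were called, which is near the 22.1% of all tested genes. For the omega-3 desaturase gene1691 the stage difference in 86-1 minus that in L-1-OL-1 was 5.90 ± 1.09 on the log2 scale (adjusted p = 0.00336), with a stage difference of 2.73 in 86-1 and -3.17 in L-1-OL-1. This call held in all 21 alternative fits. For the other endoplasmic reticulum omega-3 desaturase, gene30216, the value was -2.70 ± 0.68 (adjusted p = 0.0162), and it was lost with a pseudocount of 0.1 (adjusted p = 0.0801). gene30216 reached 1 FPKM in libraries of 86-1 alone, so its value is a description. For gene48724, a stearoyl-ACP desaturase, the value was 2.11 ± 0.56 (adjusted p = 0.0193), lost without replicate 2 of 86-1 at 27 DAF (adjusted p = 0.0532) or replicate 3 of L-1-OL-1 at 27 DAF (adjusted p = 0.0524). The lysophosphatidyl acyltransferase gene55427 had 2.35 ± 0.67 (adjusted p = 0.028), lost in 5 of the 12 fits without 1 library (adjusted p = 0.0503 to 0.0692), namely those without replicate 2 of 86-1 at 27 DAF, replicate 1 of 86-1 at 17 DAF, replicate 2 or 3 of L-1-OL-1 at 27 DAF or replicate 2 of L-1-OL-1 at 17 DAF. The acyl carrier protein gene32158 had 2.58 ± 0.61 (adjusted p = 0.0121), a call that held in all 21 alternative fits.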

How the results depend on the processing

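The call of gene64287 between cultivars held at both stages, and between stages in L-1-OL-1, in every alternative tried. The count of 3 genes called at 17 DAF includes gene18808, which passed the filter through the libraries of 86-1 at 17 DAF. This count was 1 with the 2 groups compared alone and 1 to 3 when single libraries were left out. It stayed at 3 in 5 of 22 alternatives, since gene18808 was lost in 17. The 3 called between stages in 86-1, again with gene18808, became 0 to 3 without single libraries, being 0 without replicate 2 or 3 of 86-1 at 17 DAF and 1 without replicate 1 of 86-1 at 27 DAF. The 1 called in L-1-OL-1 became 1 to 2, being 2 without replicate 1 at 17 DAF. The 0 called for a difference of stage differences became 0 to 2 without single libraries, 2 with the replicate block, and 1 each with a pseudocount of 0.1 and with quantile normalization. The counts without single libraries include gene18808 where replicate 1 of either cultivar at 17 DAF was left out. Of the 15 steps in the order of levels, a description, 2 to 5 were called without single libraries. Same-numbered libraries deviated together with r of -0.226 to 0.121, so the values show no pairing by number, and the labels do not say how libraries were numbered. With the block gene64287 (adjusted p = 0.024) and gene55389 (adjusted p = 0.0221) were called for the difference of stage differences.

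2 alternatives were chosen after seeing the data. Without replicate 1 of both cultivars at 17 DAF, 2 genes were called between stages in L-1-OL-1 and 2 for the difference of stage differences. With the late maturation level as a covariate the counts were 2 at 27 DAF, 1 between stages in 86-1, 2 in L-1-OL-1 and 2 for the difference of stage differences, gene64287 at 17 DAF was at 3.20 (adjusted p = 0.00194) and between stages in 86-1 at 1.82 (adjusted p = 0.0596), gene18808 at 17 DAF was at 1.54 (adjusted p = 0.579), gene1458 at 2.84 (adjusted p = 0.0045), and gene3372 turned to -0.21 (adjusted p = 0.821). The cause of these changes was not tested. Median-of-ratios scaling moved the median of all genes from -0.12 to 0.07 at 27 DAF, from -0.20 to -0.02 between stages in 86-1 and from -0.23 to -0.02 for the difference of stage differences. The share of higher among all calls was 45.1% with that scaling and 51.1% with quantile normalization between stages in 86-1, beside 24.6%, was 48.8% with that scaling for the difference of stage differences, beside 38.5%, and was 59.6% with quantile normalization between stages in L-1-OL-1, beside 47.8%. Over all genes 8111 were called at 17 DAF, beside 12295 without replicate 1 of L-1-OL-1 at 17 DAF and 5137 with the 2 groups alone, and 5633 between stages in 86-1, beside 2747 without replicate 2 of 86-1 at 17 DAF. A mean of at least 5 FPKM left 15181 genes and 2300, 7003, 2820, 7112 and 3632 calls in the 5 contrasts. Depth in reads is unknown, which limits what can be said of values near 0.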
